A study of Rattus norvegicus with 13 samples.

Results

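Complexes II to V of oxidative phosphorylation were taken as the probes whose gene name on the array begins with Sdh followed by a, b, c or d, with Uqcr, with Cox and a digit, or with Atp5. This gave 66 of the 30367 probes, for 55 gene names, and 65 probes for 54 names entered the comparison of 17587 probes. A probe entered when 4 or more of the 9 rats showed it clearly above local background. The member left out was Cox8c, the testis form of a complex IV subunit, for which none of the 13 arrays gave a signal well above background. By complex the tested probes were 5 for complex II, 11 for complex III, 27 for complex IV and 22 for complex V, and 48 of the 65 stand for subunits, 12 for assembly factors, 3 for gene copies and 2 for other Atp5 names. All 55 names were found in RefSeq, and 17 of them carry a newer symbol there, such as Atp5f1a for Atp5a1, Atp5f1b for Atp5b and Atp5mc1, Atp5mc2 and Atp5mc3 for Atp5g1, Atp5g2 and Atp5g3. The array's names are kept here.

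The tissue was left ventricle of male rats aged 45 weeks, from wild-type (WT) rats and from rats overexpressing the beta-3 adrenergic receptor, which the sample labels write ADBR3. The 13 single-colour arrays hold 4 WT rats, called WT 1, 3, 4 and 6, and 5 overexpressing rats, called ADBR3 1, 3, 5, 6 and 7. Hearts 1 and 2 of each group are 2 labelings of 1 rat and were averaged, while WT heart 5 and ADBR3 heart 4 repeat a hybridization that the labels do not name and were left out. The strain, the promoter and the sequence used to overexpress the receptor are details not given in the sources used here. A probe for Adrb3, the receptor's gene, gave a signal well above background on 1 of the 7 ADBR3 arrays and 0 of the 6 WT arrays, and whether it can read the introduced sequence is not given either. The array's precision rests on these 9 rats.

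Oxidative phosphorylation couples the passage of electrons to oxygen with the making of ATP at the inner mitochondrial membrane. Complex II (succinate dehydrogenase) and complex I pass electrons to ubiquinone, complex III (the cytochrome bc1 complex) hands them to cytochrome c, complex IV (cytochrome c oxidase) gives them to oxygen, and complex V (ATP synthase) uses the resulting proton gradient. Heart muscle draws nearly all of its ATP from this pathway, and several complex IV subunits exist as a heart and skeletal muscle isoform beside a form found in most tissues. A few core subunits of complexes III, IV and V are encoded by mitochondrial DNA, and all other members come from the nucleus.

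Between the groups no member passed the threshold: 0 of 65 probes had an adjusted p under 0.05 (limma, Benjamini-Hochberg over 17587 probes, smallest member adjusted p 0.469), against 1 probe, or 0.00569%, of all probes tested, that for the kinase Ak1. At an unadjusted p under 0.05, limma gave 3 of the 65, all lower in ADBR3 rats, beside 9.2% of all probes, of which 6.08% were lower and 3.12% higher. Adjusting over 1 probe per gene name, a trended and robust variance, and each of the other alternative settings also left 0 members past the threshold. Differences are given as ADBR3 minus WT on the log2 scale, where a level is the log2 signal of a probe less the 75th percentile of its array. They ran from -0.65 to 0.16 over the members with a median of -0.03, where the median over all probes was -0.01. A lower mean in overexpressing hearts was found for 47 of 65 members (72.3%), beside 53.5% of all probes. This split depends on the scaling: with arrays scaled by their median it was 29 of 65 (44.6%), beside 39.3% of all probes, and the medians turned to 0.01 for the members and 0.03 for all probes. Under the other 5 scalings 43 to 51 members were lower (66.2% to 78.5%), beside 43.7% to 59% of all probes. Counts of lower probes by complex in the following paragraphs are those of the 75th percentile scaling.

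The intervals of these differences were narrow for most members. The 95% interval lay wholly within 0.25 log2 units of 0, a fold of 1.19 either way, for 46 of 65 members and for 40 of the 48 subunit probes, beside 40.3% of all probes. The median half-width was 0.13 for the members and 0.20 for all probes. Most of the remaining members had low levels, as the plot of difference against level shows.

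**Figure D1:**
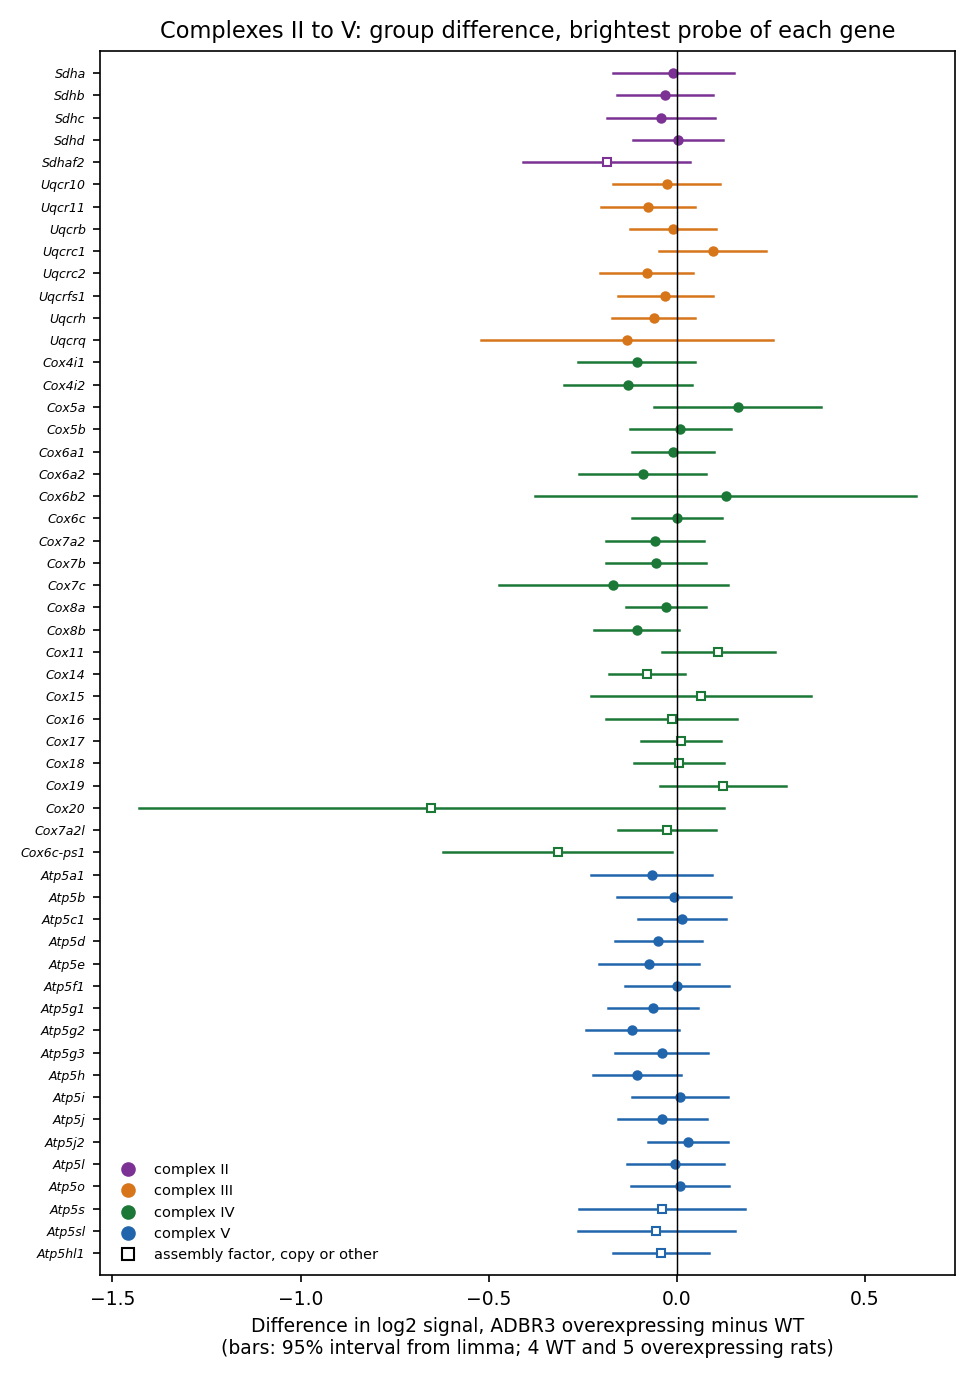
Difference in log2 signal, ADBR3 overexpressing minus WT, for the brightest tested probe of each of the 54 gene names, with the 95% interval from limma over 4 WT and 5 ADBR3 rats. Filled circles are subunits and open squares are assembly factors, copies and other names. Nearly all points lie close to 0, and the interval that stands apart from 0 is that of the gene copy Cox6c-ps1.

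**Figure D2:**
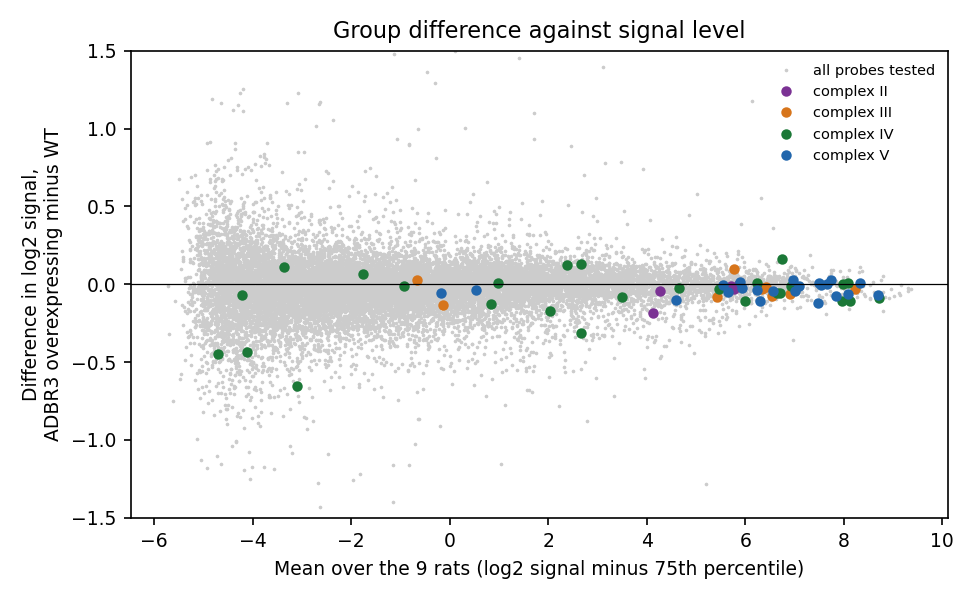
Difference in log2 signal, ADBR3 overexpressing minus WT, against the mean level over the 9 rats for all 17587 probes (grey) and the 65 member probes coloured by complex. The vertical axis ends at 1.5 log2 units either way and leaves out 29 probes. Most members sit at the bright end, where differences of all probes are small.

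Complex II holds 4 subunits, each with 1 probe. Sdha, the flavoprotein that oxidises succinate, stood at 5.71, 5.56, 5.77 and 5.79 in WT 1, 3, 4 and 6, and at 5.73, 5.81, 5.63, 5.56 and 5.76 in ADBR3 1, 3, 5, 6 and 7. The groups overlapped fully, with WT 3 and ADBR3 6 the lowest. Its difference was -0.01 (95% interval -0.17 to 0.15), that of the iron-sulfur subunit Sdhb -0.03 (-0.16 to 0.10), and those of the membrane anchors Sdhc and Sdhd -0.04 (-0.19 to 0.10) and 0.00 (-0.12 to 0.12). All 4 intervals lay within 0.25 of 0, and the median of the 4 differences was -0.02. Sdhaf2, which attaches the flavin to Sdha, had the lowest mean relative to WT among the complex II names. It read 4.20, 4.23, 4.28 and 4.25 in the WT rats and 4.22, 4.27, 3.86, 3.83 and 4.10 in ADBR3 1, 3, 5, 6 and 7. ADBR3 5, 6 and 7 were below every WT rat while ADBR3 1 and 3 lay among them, and the difference of -0.19 ± 0.09 (SE) had an adjusted p of 0.584 (limma, Benjamini-Hochberg).

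Complex III was measured by 11 probes for 8 subunits, of which 9 had a lower mean in ADBR3 rats, with a median difference of -0.03. The 2 large core proteins went in opposite directions without passing the test: Uqcrc1 had a difference of 0.10 (95% interval -0.05 to 0.24) and Uqcrc2 one of -0.08 (-0.20 to 0.04). Uqcrc1 stood at 5.77, 5.55, 5.77 and 5.76 in WT 1, 3, 4 and 6 and at 5.79, 5.84, 5.90, 5.74 and 5.76 in the ADBR3 rats. WT 3 alone was low, the other rats of both groups shared a span from 5.74 to 5.90, and without WT 3 the difference was 0.04. Uqcrfs1, the Rieske iron-sulfur protein that passes electrons on to cytochrome c1, differed by -0.03 (-0.16 to 0.10). Among the small subunits, the hinge protein Uqcrh differed by -0.06 (-0.17 to 0.05) and Uqcr11 by -0.08, -0.02 and -0.02 over its 3 probes. Uqcrb, a ubiquinone-binding protein, had 2 probes with differences of -0.01 and 0.03. Uqcrq was the noisy member of the complex, with an interval from -0.52 to 0.26 and a difference of -0.13 that was -0.03 without ADBR3 3, and the intervals of the other 10 probes lay within 0.25 of 0.

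Complex IV was measured by 14 probes for 13 subunits, and 10 of these probes had a lower mean in ADBR3 rats, with a median difference of -0.06. The interval lay within 0.25 of 0 for 7 of them. Cox5a, a subunit on the matrix side of the enzyme, had the highest difference of all members, 0.16 (95% interval -0.06 to 0.38, limma adjusted p 0.619). It read 6.86, 6.77, 6.65 and 6.36 in WT 1, 3, 4 and 6, and 6.78, 6.75, 6.89, 6.78 and 6.92 in the ADBR3 rats. The difference lay with the low values of WT 6 and WT 4, as WT 1 and 3 stood among the ADBR3 rats, and without WT 6 it was 0.06. Cox5b, the zinc-binding subunit, differed by 0.01 (-0.12 to 0.14), Cox6c by 0.00 (-0.12 to 0.12), Cox7b by -0.06 (-0.19 to 0.08) and Cox7c by -0.17 (-0.47 to 0.14). ADBR3 3 was the lowest rat for Cox7c at 1.57 and ADBR3 5 the highest at 2.34, and the difference was -0.07 without the former and -0.26 without the latter.

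Complex IV subunits with isoforms are described probe by probe, since probes differ in yield and levels of different genes cannot be set against each other. The muscle form Cox6a2 read 8.84, 8.56, 8.79 and 8.87 in WT 1, 3, 4 and 6, and 8.72, 8.62, 8.66, 8.59 and 8.78 in the ADBR3 rats. WT 3 was the lowest of all 9 rats and the other WT rats were the highest 3. The difference was -0.09 ± 0.07 (SE, limma adjusted p 0.714) -0.16 without WT 3 and -0.06 without WT 6, while its ubiquitous partner Cox6a1 differed by -0.01 (95% interval -0.12 to 0.10). Cox8b, the muscle form of the smallest subunit, read 8.10, 8.00, 7.95 and 8.04 in the WT rats and 7.89, 7.98, 7.90, 7.86 and 7.95 in the ADBR3 rats. ADBR3 1, 5 and 6 were below every WT rat, and ADBR3 3 and 7 overlapped with WT 4. Its difference was -0.11 ± 0.05 (SE, limma unadjusted p 0.063, adjusted p 0.548), and that of its partner Cox8a was -0.03 (-0.14 to 0.08). The remaining ubiquitous forms Cox4i1 and Cox7a2 differed by -0.11 (-0.26 to 0.05) and -0.06 (-0.19 to 0.07), and a second probe of Cox7a2 by -0.11. For Cox4i1, ADBR3 1 was the lowest rat at 7.88, the other ADBR3 rats lay between 8.08 and 8.20, and without ADBR3 1 the difference was -0.06. The 2 labelings averaged for ADBR3 1 read 8.14 and 7.62, and the first lay among the other ADBR3 rats. With the slide as a block the Cox4i1 difference was -0.01. All 7 probes of these muscle and ubiquitous forms had a lower mean in ADBR3 rats, beside 53.5% of all probes, and none passed the test. Cox6a1 changed sign in 8 of the 25 alternatives and Cox8a in 1. Cox7a1 and Cox6b1, which fall outside the name rule and were not all lower, are given in the next paragraph. The lung form Cox4i2 differed by -0.13 (-0.30 to 0.04) and the testis form Cox6b2 by 0.13 (-0.38 to 0.64), which ran from -0.05 without WT 4 to 0.34 without WT 1.

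The balance of an isoform pair was taken as the log2 difference between its 2 probes within each rat, which does not depend on the scaling of the arrays. For Cox8b minus Cox8a it was 2.59, 2.55, 2.50 and 2.54 in WT 1, 3, 4 and 6 and 2.50, 2.48, 2.47, 2.34 and 2.55 in the ADBR3 rats. ADBR3 6 was the lowest, ADBR3 1 and 7 lay within the WT range, and the groups overlapped. The means were 2.54 ± 0.04 (SD, n = 4) and 2.47 ± 0.08 (SD, n = 5), a difference of -0.08 (exact two-sided permutation p 0.0952, adjusted over 7 pairs 0.667). This difference was gone, at 0.01, with the slide as a block. For Cox6a2 minus Cox6a1 the means were 1.82 ± 0.09 in WT and 1.74 ± 0.10 in ADBR3 rats, a difference of -0.08 (exact permutation p 0.23). The muscle form Cox7a1 and the ubiquitous Cox6b1 carry locus names on this array, so they fall outside the name rule and were found through RefSeq. Their own differences were 0.00 (-0.34 to 0.34) for Cox7a1 and 0.02, 0.00 and -0.05 for the 3 probes of Cox6b1, of which the first, the brightest, enters the pair. Cox7a1 minus Cox7a2 differed by 0.06 between the groups (exact permutation p 0.754), Cox4i1 minus Cox4i2 by 0.02 (p 0.778, exact) and Cox6b1 minus Cox6b2 by -0.11 (p 0.69, exact). The smallest p that 4 against 5 rats allow is 0.00794, and no pair came below 0.0952.

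**Figure D3:**
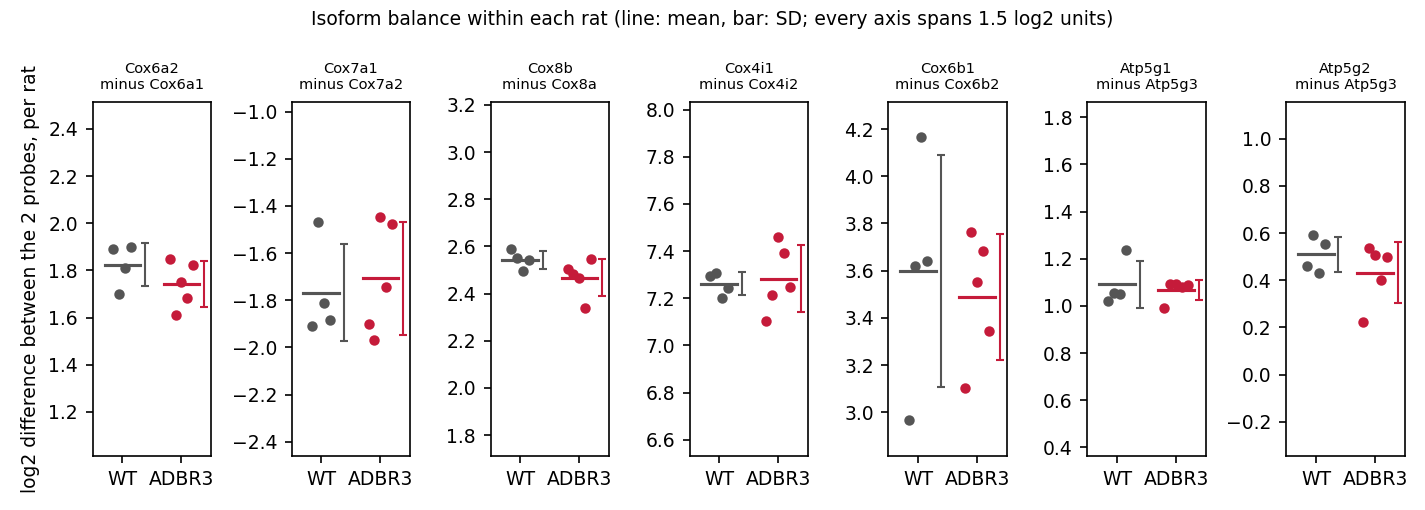
Within-rat log2 difference between the 2 probes of each isoform pair in 4 WT rats (grey) and 5 ADBR3 rats (red); lines are group means, bars are SD, and every axis spans 1.5 log2 units. The groups overlap in all 7 pairs. The absolute height of a panel reflects the 2 probes and is not a ratio of transcripts.

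The promoters of the pair Cox8b and Cox8a and of the muscle isoform Cox6a2 are shown because these isoforms are defined by where they are expressed. The sequences are the 250 bases before the RefSeq start, assembly GRCr8, and capitals mark matches to the motifs named in the next paragraph. Cox8b lies at chr1:205408274-205408523, Cox8a at chr1:213833624-213833873 and Cox6a2 at chr1:192219717-192219966, all on the minus strand.
Cox8b: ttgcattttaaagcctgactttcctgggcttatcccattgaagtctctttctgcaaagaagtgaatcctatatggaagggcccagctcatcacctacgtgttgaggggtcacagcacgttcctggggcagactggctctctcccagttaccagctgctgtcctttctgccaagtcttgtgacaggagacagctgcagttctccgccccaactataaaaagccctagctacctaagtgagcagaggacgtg
Cox8a: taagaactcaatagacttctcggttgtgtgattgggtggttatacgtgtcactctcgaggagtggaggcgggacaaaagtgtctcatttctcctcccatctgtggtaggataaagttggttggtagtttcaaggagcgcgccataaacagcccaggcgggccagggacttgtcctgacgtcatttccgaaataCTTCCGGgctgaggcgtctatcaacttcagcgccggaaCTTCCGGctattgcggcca
Cox6a2: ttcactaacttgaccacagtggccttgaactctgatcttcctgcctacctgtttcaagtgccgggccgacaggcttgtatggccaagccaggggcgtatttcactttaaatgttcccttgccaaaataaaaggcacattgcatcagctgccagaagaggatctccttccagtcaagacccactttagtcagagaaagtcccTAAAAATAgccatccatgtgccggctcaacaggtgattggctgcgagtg

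Motifs were searched on both strands of 300-base windows, from 250 bases before to 50 after the start. The windows of 35 of the 41 subunit genes were found. CCGGAAG, a core recognised by the ETS factor GABP, was held by 13 of 35 windows (37.1%), beside 9.63% of the 27457 genes in the table. The NRF1 palindrome, GCGC followed by 2 free bases and GCGC, was held by 7 of 35 (20%), beside 6.34%. AANATGGCG, a core of the YY1 site, was held by 6 of 35 (17.1%), beside 3.45%. The GABP letters were in the windows of 3 of 4 ubiquitous partners, Cox8a, Cox7a2 and Cox4i1, and of 0 of 5 tissue isoforms, which were Cox6a2, Cox7a1, Cox8b, Cox6b2 and Cox8c. TAAAAATA, a MEF2 core searched after the Cox6a2 sequence had been seen, was held by 1 of 35 windows (2.86%), beside 2.95% of all genes. That window was the one of Cox6a2, and those of the muscle isoforms Cox8b and Cox7a1 lacked it. These are matches of letters in a window and show no binding.

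Complex V was measured by 19 probes for 15 subunits, and all 19 intervals lay within 0.25 of 0. Of the differences, 13 were below 0 and 6 above, from -0.12 to 0.03 with a median of -0.03. In the catalytic head, the alpha subunit Atp5a1 differed by -0.07 (95% interval -0.23 to 0.09) and the beta subunit Atp5b by -0.01 (-0.16 to 0.14). Atp5a1 read 8.79, 8.53, 8.77 and 8.81 in WT 1, 3, 4 and 6, and 8.62, 8.62, 8.70, 8.59 and 8.77 in the ADBR3 rats. WT 3 was the lowest of the 9 and the other WT rats were the highest 3, as for Cox6a2, and without WT 3 the difference was -0.13. The central stalk subunits Atp5c1, Atp5d and Atp5e (gamma, delta and epsilon) differed by 0.01, -0.05 and -0.07. Of the peripheral stalk, Atp5f1 (subunit b) and Atp5o (which confers oligomycin sensitivity) differed by 0.00 and 0.01. Atp5h (subunit d) differed by -0.11 (-0.22 to 0.01, limma unadjusted p 0.0684, adjusted p 0.556). The small membrane subunits Atp5i, Atp5j2 and Atp5l lay between -0.03 and 0.03 on all their probes.

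Subunit c, which forms the rotating ring, is made from 3 genes that encode the same mature protein. Atp5g2 read 7.58, 7.53, 7.50 and 7.53 in WT 1, 3, 4 and 6, and 7.28, 7.46, 7.46, 7.39 and 7.50 in ADBR3 1, 3, 5, 6 and 7. Every ADBR3 rat was below every WT rat, though ADBR3 7 and WT 4 nearly touched. The 2 labelings averaged for ADBR3 1 stood apart, at 7.49 and 7.08, both below the WT rats. This Atp5g2 probe was the 1 member of 65 whose groups did not overlap, beside 3.44% of all probes. Its difference of -0.12 ± 0.05 (SE) had an adjusted p of 0.547 (limma, Benjamini-Hochberg), and without ADBR3 1 the difference was -0.08. The second Atp5g2 probe had a difference of 0.03 (-0.08 to 0.14), with its groups overlapping. With the slide as a block the first probe's difference was -0.01. Atp5g1 differed by -0.06 (-0.18 to 0.06) and the 2 probes of Atp5g3 by -0.04 and -0.10. Within rats, with the brighter of the 2 probes named Atp5g3, Atp5g1 minus Atp5g3 differed by -0.02 between the groups (exact permutation p 0.778) and Atp5g2 minus Atp5g3 by -0.08 (p 0.365, exact). The latter turned to 0.08 with the slide as a block.

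The 2 probes named Atp5g3 are not the same sequence, and they are shown because the pair comparisons rest on one of them, A_44_P484950. Which of them reads the Atp5g3 transcript was not settled: the array's files tie A_44_P484950 to an Ensembl transcript and A_43_P15344 to a RefSeq transcript. After subtracting group means, their correlations over the 9 rats with the mean of the other subunit probes were 0.16 and 0.82. With A_43_P15344 in the pairs, Atp5g1 minus Atp5g3 differed by 0.04 (exact permutation p 0.381) and Atp5g2 minus Atp5g3 by -0.02 (exact permutation p 0.762). Over the 48 bases in which they align, 43 match, and capitals mark the 5 positions that differ. A_44_P484950 lies at chr3:56512525-56512584, minus strand, in rn4, the build of the array design, and the files give no rn4 position for the other.
Atp5g3 A_44_P484950: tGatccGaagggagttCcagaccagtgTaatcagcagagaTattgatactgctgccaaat
Atp5g3 A_43_P15344: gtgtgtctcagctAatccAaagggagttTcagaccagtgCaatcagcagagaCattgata

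Cox6c-ps1, a processed copy of the complex IV subunit Cox6c, gave 2 of the 3 member probes at an unadjusted p under 0.05. Probe A_64_P058266 read 2.81, 2.82, 2.69 and 3.00 in WT 1, 3, 4 and 6, and 2.40, 2.10, 2.78, 2.63 and 2.66 in the ADBR3 rats. ADBR3 1, 3, 6 and 7 were below every WT rat and ADBR3 5 lay above WT 4. The difference was -0.32 (95% interval -0.62 to -0.01, limma unadjusted p 0.0434, adjusted p 0.536). Probe A_44_P285575 read -3.52, -4.28, -3.78 and -3.89 in the WT rats and -4.41, -4.27, -4.23, -4.59 and -4.00 in the ADBR3 rats, with WT 3 inside the ADBR3 range. Its difference was -0.43 (-0.79 to -0.07, limma unadjusted p 0.0242, adjusted p 0.49), and -0.32 without WT 1. On this dim probe the 2 labelings averaged for WT 1 read -2.78 and -4.26, and the second lay inside the ADBR3 range. With the slide as a block the differences were -0.11 and -0.12. Cox6c itself stayed between 7.88 and 8.07 in all 9 rats, with a difference of 0.00 (-0.12 to 0.12).

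Both Cox6c-ps1 probes and the Cox6c probe are shown because their near identity bears on what each can read. The probes of the copy share 34 identical bases, so they are not independent readings. The Cox6c probe aligns with A_44_P285575 over 48 bases, of which 41 match, and with A_64_P058266 over 46, of which 40 match. Capitals mark positions that differ between Cox6c and the copy, those in the Cox6c line against A_64_P058266. How much Cox6c RNA the probes of the copy bind was not tested.
Cox6c A_64_P146945, rn4 chr7:71474381-71474440, minus strand: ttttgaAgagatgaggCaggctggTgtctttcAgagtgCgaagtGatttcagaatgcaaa
Cox6c-ps1 A_64_P058266, rn4 chr19:54398139-54398198, minus strand: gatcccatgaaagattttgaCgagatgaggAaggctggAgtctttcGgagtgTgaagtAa
Cox6c-ps1 A_44_P285575, rn4 chr19:54398113-54398172, minus strand: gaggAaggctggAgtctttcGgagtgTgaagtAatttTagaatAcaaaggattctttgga

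**Figure D4:**
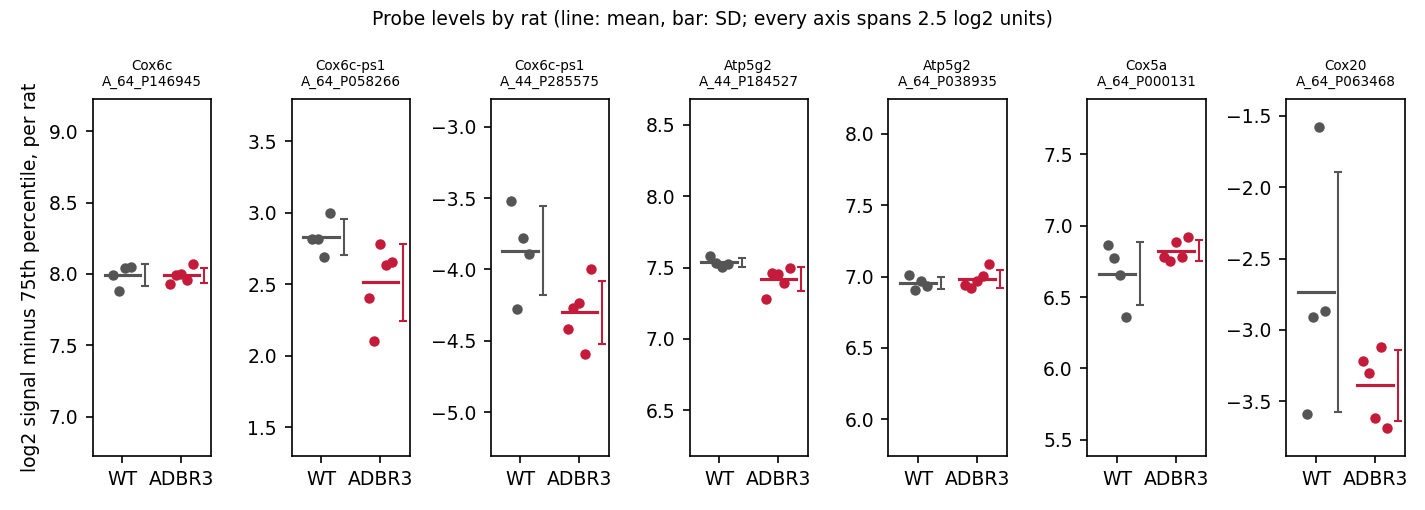
Level by rat, in log2 signal relative to the 75th percentile of the array, for 7 probes of Cox6c, Cox6c-ps1, Atp5g2, Cox5a and Cox20 in 4 WT rats (grey) and 5 ADBR3 rats (red); lines are means, bars are SD, and every axis spans 2.5 log2 units. Cox6c and both Atp5g2 probes are tight, while Cox20 and the dimmer Cox6c-ps1 probe scatter widely.

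Assembly factors were measured by 12 probes for 10 genes, 7 of them with a lower mean in ADBR3 rats, and 1 at an unadjusted p under 0.05. That one was a probe of Cox11, which delivers copper to complex IV: its 3 probes differed by 0.11 (limma unadjusted p 0.132), -0.07 (0.736) and -0.45 (0.0207). The 3 probes therefore did not point one way, and the -0.45 probe was dim: it read between -5.26 and -4.24 over the 9 rats and was well above background on 4 of the 6 WT and 3 of the 7 ADBR3 arrays, so its difference rests partly on signals near background. Cox20, a chaperone of the complex IV subunit Cox2, had the lowest difference of all members, -0.65 (95% interval -1.43 to 0.12, limma adjusted p 0.584). It read -3.59, -2.91, -1.58 and -2.87 in WT 1, 3, 4 and 6, and -3.22, -3.30, -3.62, -3.12 and -3.68 in the ADBR3 rats. WT 4 was the high reading, and WT 1 lay among the ADBR3 rats. Without WT 4 the difference was -0.27. Cox14, which regulates the making of the complex IV core, differed by -0.08 (-0.18 to 0.02) and the twin-cysteine protein Cox19 by 0.12 (-0.04 to 0.29), or 0.07 without WT 3. The copper chaperone Cox17 differed by 0.01 (-0.10 to 0.12) and Cox7a2l, a supercomplex factor, by -0.03 (-0.16 to 0.10). Atp5s and Atp5sl, now named Dmac2l and Dmac2, differed by -0.04 (-0.26 to 0.18) and -0.05 (-0.26 to 0.16). Atp5hl1, a copy of Atp5h, differed by -0.04.

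A list of further genes around complexes III to V, whose names fall outside the rule, gave 54 probes for 45 genes, 36 lower and 18 higher in ADBR3 rats. In limma 0 passed the adjusted threshold and 2 were at an unadjusted p under 0.05, beside 9.2% of all probes. Of the 54, 44 probes for 35 genes stand for other subunits, cytochrome c and factors of assembly or expression, 30 of them lower. The remaining probes are 7 for ubiquinone synthesis, 4 of them lower, and 3 for the electron transfer flavoprotein and its dehydrogenase, 2 of them lower. Cmc1, a factor for complex IV assembly, read 0.62, 0.75, 0.79 and 0.96 in the WT rats and 0.55, 0.55, 0.58, 0.49 and 0.58 in the ADBR3 rats. Its groups did not overlap, as for 3.44% of all probes, and the difference of -0.23 (95% interval -0.38 to -0.08) had an adjusted p of 0.397 (limma, Benjamini-Hochberg). Coa7, named Selrc1 on the array, and Lyrm7, which helps to insert the Rieske protein, each differed by 0.22 (limma unadjusted p 0.0465 and 0.0598). Uqcc3, a complex III factor, differed by -0.11 (-0.28 to 0.05). The 6 subunits encoded by mitochondrial DNA had a median difference of -0.04. Each was lower in ADBR3 rats, beside 53.5% of all probes, and none was at an unadjusted p under 0.05 in limma. Their median difference was -0.15 within scan day 1 (1 WT rat against 3) and 0.004 within scan day 2 (3 against 3). The 60 probes with Nduf names, the names of complex I, had a median of -0.03 with 41 lower. For the 48 subunit probes of complexes II to V it was -0.03 with 35 lower. The Nduf probes were taken by name alone and include Ndufa4, which is also 1 of the 54 above.

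The members were also followed rat by rat. For each rat, the deviation of every member from its 9-rat mean was taken and the median reported. It was 0.04, -0.04, 0.03 and 0.06 in WT 1, 3, 4 and 6, and -0.05, -0.02, 0.01, -0.08 and 0.05 in ADBR3 1, 3, 5, 6 and 7. ADBR3 6 was the lowest rat for 23 of the 65 members and WT 3 for 17, and WT 6 was the highest for 17 and ADBR3 7 for 14. The same medians over all probes stayed between -0.01 and 0.02. Transcripts of mitochondrial DNA were at -0.27 in WT 3 and 0.16 in WT 1, a wider span than that of any nuclear complex. Markers of cardiomyocytes, all 19 of which were kept, had a median deviation of -0.17 in WT 3 and between -0.01 and 0.09 in the other rats. Their part in the low WT 3 values was not tested, and in ventricle RNA fewer cells of a type and less RNA per cell cannot be told apart.

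**Figure D5:**
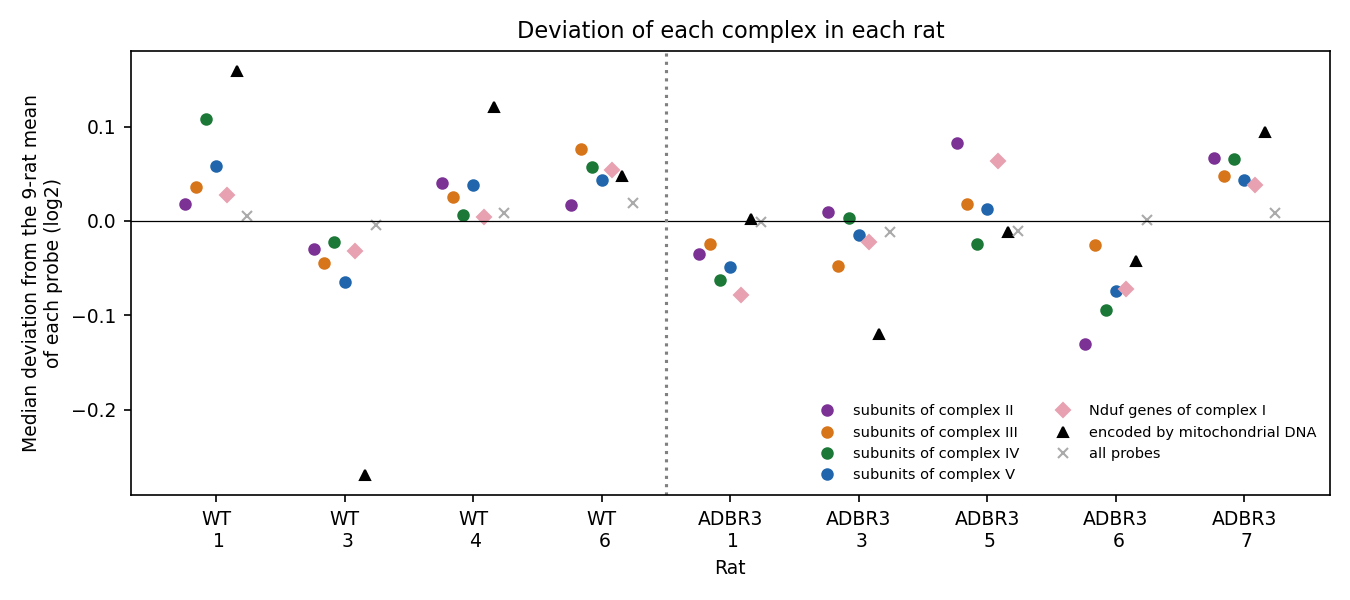
Median deviation (log2) of each list's probes from their 9-rat means in each of 4 WT and 5 ADBR3 rats, by complex, for genes with Nduf names (labelled complex I), for transcripts of mitochondrial DNA and for all probes. WT 3, ADBR3 1 and ADBR3 6 lie low for several complexes at once, WT 6 and ADBR3 7 lie high, and the mitochondrial transcripts of WT 3 lie at -0.27.

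Subunit probes varied together from rat to rat. After subtracting the group means, the median correlation of a subunit probe with the mean of the other subunit probes was 0.62 over the 9 rats, with 93.8% above 0. For the 60 Nduf probes it was 0.64, for 817 other probes with a mean level of at least 5 it was 0.34, and for all probes it was 0.04. By complex it was 0.59 for complex II, 0.70 for complex III, 0.56 for complex IV and 0.66 for complex V, and it was 0.33 for assembly factors. Among subunit probes, the Rieske gene Uqcrfs1 (0.97), Atp5e (0.95) and Atp5a1 (0.90) had the highest values, and Cox7b (-0.10), Cox8a (-0.09) and probe A_64_P071483 of Cox7a2 (-0.01) the lowest. Among the other members, Cox6c-ps1 had 0.92 on its dim probe A_44_P285575 and 0.25 on the brighter A_64_P058266. Cox20 had -0.41. These values describe 9 rats whose probes share an array, its labeling and its scaling, and the part of those in the correlation was not tested.

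Slide and scan day were examined within batches, over rats and without the 2 unnamed repeat arrays. Slide 1 held WT 1 and 6 and a labeling of ADBR3 1, and slide 3 held WT 4 and ADBR3 7. The only WT array on slide 4 was the unnamed repeat, which was closest to WT 4, so that slide gave no value, and the other slides held 1 group each. Median differences over the members were -0.10 on slide 1 and 0.02 on slide 3, where the sign turned. They were -0.03 within scan day 1 (1 WT rat against 3) and -0.05 within scan day 2 (3 against 3). ADBR3 1 entered both days, with 1 labeling on each, so the days do not hold separate rats. Cox5a differed by 0.16 on slide 1, which holds the low WT 6, and by 0.26 on slide 3, which holds the low WT 4, while Cox6a2 differed by -0.11 and -0.01. Cox6c-ps1, at probe A_64_P058266, differed by -0.24 and -0.04, and Atp5g2 by -0.07 and -0.01. For the lists of other cell types, levels are means over all listed genes on the array, those not kept included, while differences use kept probes. The mean level of the adipocyte markers, of which 6 of 10 were kept, ranged from -2.17 to -1.70 in WT and from -2.68 to -0.95 in ADBR3 rats. Lep and Plin1 were not well above background on any array. Skeletal muscle markers, of which 7 of 12 were kept, ranged from -3.58 to -3.09 and from -3.43 to -3.02, with Myh1 and Actn3 not well above background on any array. Lymphocyte markers, of which 5 of 10 were kept, had a lower mean in ADBR3 rats on 5 of 5 probes with a median difference of -0.49. At an unadjusted p under 0.05 limma gave 3 of these 5 probes and 3 of the 24 cardiomyocyte probes, beside 9.2% of all probes. The mean level of all 10 lymphocyte markers ranged from -4.52 to -4.18 in WT and from -4.93 to -4.47 in ADBR3 rats. Cd79b was not well above background on any array. Fibroblast markers had a higher mean in ADBR3 rats on 11 of 11 probes, with a median of 0.11, and ranged from 0.43 to 0.69 and from 0.56 to 0.99. Atrial markers, of which 5 of 6 were kept, were higher on 5 of 6 probes, with a median of 0.11, and ranged from 0.63 to 1.60 and from 0.66 to 2.49. In the cardiomyocyte, lymphocyte, fibroblast and atrial lists no probe passed the adjusted threshold (limma). The part of any of the lists in the differences above was not tested.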

How the data were processed

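RNA of the left ventricle was labelled with Cy3 and hybridised to 13 Agilent arrays, 6 of WT and 7 of ADBR3 hearts. The deposited scanner files give the intensity of each spot from Agilent Feature Extraction 10.7.1.1, as background-subtracted signal on array design 028279 and build rn4, per the file headers. The authors' deposited series values are natural log signals of 20000 probes. Against log scanner signals of the matching arrays, the columns had slopes of 0.986 to 1.063, correlations of 0.9988 to 0.9999 and medians of 5.70 to 5.73. Its scaling and centring between arrays are not given in the sources used here, and it was used as 1 of the alternatives.

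From the processed signal, log2 minus the array's 75th percentile was computed, and spots of a probe were averaged. Levels of different probes were set against each other only as a difference within each rat, whose change between groups was tested. Probes had to be well above background, on 0.5 or more of their spots, in 4 or more of the 9 rats. The 75th percentile lay between 760.4 and 908.7 and the share of spots well above background between 55.2% and 67.8%, with 0 saturated. Group was the single term in lmFit and eBayes of limma 3.58.1 (R 4.3.3, with version 1.17.8 of the package data.table), adjusted by Benjamini-Hochberg at 0.05 over 17587 probes and tested on simulated data. Isoform balances used exact two-sided permutation over 126 splits. RefSeq tables of GRCr8 gave names and promoters. Plots used matplotlib in Python.

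Genes named were both genes of each isoform pair, 8 core genes, up to 4 genes with the smallest p per complex, among assembly factors and in the outside list, and any gene whose groups did not overlap. Members outside that rule are given by complex. The members, lists and motifs were chosen with earlier results of these data known. The 25 alternatives covered background, scaling, filters, probe choice, variance model, replicate arrays, slide, scan day, pairing and each rat left out, and the other Atp5g3 probe was tried in its pairs after seeing the data. The slide and scan day fits used all 13 arrays, with each unnamed repeat given to the rat of its group whose array was closest.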

Additional observations from a re-analysis of the deposited data

Results flagged for a closer look

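In 154 groups of 4 or 5 rats, 6 had 1 rat far from the rest of its group, where chance gives about 1 in 20 groups. The count is not above that rate, and the groups reuse the same rats. WT 3 was low for Uqcrc1, at 5.55 against 5.76 to 5.77 in the other WT rats, and for Atp5a1, at 8.53 against 8.77 to 8.81. The median deviation of the complex V subunits in WT 3 was -0.0643, against 0.0380 to 0.0577 in the other WT rats. ADBR3 6 was low for Uqcr11 (probe A_42_P456155), at 6.41 against 6.53 to 6.56, and for Atp5s, at 0.298 against 0.522 to 0.599. In ADBR3 1 the log2 difference of Atp5g1 minus Atp5g3 was 0.993, against 1.08 to 1.09 in the other ADBR3 rats.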

How the results depend on the processing

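Under all 25 alternatives 0 members passed the threshold, and the median difference of the members ranged from -0.07 to 0.01, with -0.06 without WT 3, -0.02 without ADBR3 6 and 0.01 with scaling by the array median. The count over all probes, 1 in the comparison reported, was 2 with normexp and quantile normalization, 6 with a trended and robust variance, 2 with the scan day as a block and 0 with the slide as a block. Leaving out 1 rat gave 0 to 14 probes, with 14 without ADBR3 3, 2 each without WT 1 and ADBR3 5, and 0 without WT 3, WT 4, WT 6, ADBR3 6 or ADBR3 7. Rats 1, 3 and 6 exist in both groups; with the heart number as a replicate block 0 probes passed, and 0 without the block. Deviations of same-numbered rats correlated by 0.12, 0.04 and 0.15. With no values for differently numbered rats beside them, these cannot decide whether the numbers pair the rats. With the slide as a block, Cox8b minus Cox8a was 0.01114 and Atp5g2 minus Atp5g3 was 0.07812, in place of -0.08 each; the cause was not tested. Of the 31 named genes, 11 changed sign in at least 1 alternative, each with a difference near 0 or, for Cox6b2, a wide spread. WT rat 1 taken from heart 1 alone was an alternative chosen after seeing the data, as was the other Atp5g3 probe, which turned Atp5g1 minus Atp5g3 from -0.02 to 0.04. The number of rats limits the precision, and the dim probes have the widest intervals.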
